A study of Mus musculus with 28 samples.

Results

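Duodenal RNA of mice whose vitamin D receptor lacks activation function 2 was compared with duodenal RNA of mice without a working receptor. The 8 libraries were chosen by their sample titles alone, 4 labelled Vdr AF2 and 4 labelled Vdr-/-, out of 28 libraries in all, of which 14 are duodenum. The study measured RNA of duodenum and kidney with libraries that read the 3' ends of transcripts, and set receptor signalling without coactivators against absent receptor signalling. The AF2 group carries the AF2 mutant receptor, the KO group (Vdr-/-, named Demay in the table header) carries no working receptor, and 6 wild-type duodenal libraries (WT) were in the same fit and are given as the normal level. All mice were female, 8 weeks old and fed TD.96348, which is high in lactose, calcium and phosphate, so every comparison below is between mice on that diet. Whether the mutants share a strain background, and whether duodenum and kidney libraries with the same number came from 1 animal, is not given in the sources used here.

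The vitamin D receptor is a nuclear receptor that binds DNA as a heterodimer with a retinoid X receptor. When the hormone calcitriol is bound, a helix at the receptor's C-terminal end closes over the ligand and forms, with neighbouring residues, the surface called activation function 2, on which coactivators dock. A receptor without that surface can still be made and can still bind DNA, whereas a null allele leaves no working receptor at all. In the duodenum the receptor is best known for raising active calcium uptake, in which calcium enters the enterocyte through the channel TRPV6, is carried by the calbindin encoded by S100g and leaves through the pump encoded by Atp2b1.

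Total counts were 3713352 to 4491632 in the KO libraries and 3938176 to 6001952 in the AF2 libraries. Every deposited count was even, so reads are given as counts divided by 2, which is 1856676 to 2245816 in KO and 1969088 to 3000976 in AF2. Levels are normalised counts in CPM, which are counts scaled to a common library size with TMM factors and not corrected for gene length. The summed level of 12 genes of duodenal epithelial identity was 5458 to 6865 CPM in KO against 5629 to 6871 in AF2, and all 12 were detected. The 12 pancreatic enzyme genes summed to 109 to 11920 CPM in KO against 419 to 10525 in AF2, and liver genes such as Alb were present in KO 2 and KO 3 (53.2 and 107 CPM) against at most 1.98 CPM in AF2. Alb was also present in WT 2, WT 3 and WT 4 (16.8, 220 and 59.9 CPM), against at most 0.654 CPM in the other WT libraries. The KO libraries carry library codes that run on from those of WT 3 and WT 4, and the AF2 libraries codes that run on from WT 5 and WT 6. The codes are not said to mark a batch, but KO and AF2 never share a run, so within-run values cannot be had and the run and the genotype cannot be told apart except through the WT libraries. The share of counts from mitochondrial transcripts was 11.05% to 12.93% in KO and 8.86% to 12.9% in AF2.

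The presence of an AF2-deficient receptor went with few differences that passed the test. Of 13302 genes tested, 2 differed between AF2 and KO, which is 0.015%, and both were higher in AF2: Vdr itself and Slpi, the secretory leukocyte peptidase inhibitor of mucosal surfaces. A gene was called at an adjusted p under 0.05, which is edgeR's quasi-likelihood test with Benjamini-Hochberg adjustment over all genes tested. At an unadjusted p under 0.05 there were 1328 genes, which is 9.98%, split into 667 higher in AF2 (5.01%) and 661 lower (4.97%). The groups did not overlap for 873 genes (6.56%), 457 of them higher in AF2 (3.44%) and 416 lower (3.13%). The 95% interval of the fold change lay wholly within 2-fold for 8943 genes (67.2%), and for 1699 of the 1791 genes with an average of at least 100 CPM (94.9%). The median log2 fold change of all genes was 0.00. The number of calls moved with the fit. It was 50 (32 higher, 18 lower, Vdr and Slpi among them) when only the 8 AF2 and KO libraries were fitted, 93 with DESeq2 (Vdr among them) and 0 in edgeR without KO 3 and KO 4, where 818 genes had an unadjusted p under 0.05.

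Vdr checks the labels first. Its level was 120, 114, 97.3 and 112 CPM in KO 1 to KO 4 against 408, 432, 362 and 388 in AF2 1 to AF2 4. Every AF2 library lay above every KO library without overlap, and the AF2 libraries lay within the WT range of 267 to 646 CPM. The log2 fold change of AF2 over KO was 1.84 ± 0.21 (SE), with an edgeR adjusted p of 0.000492. Against WT, Vdr differed by -0.29 ± 0.18 in AF2 (edgeR adjusted p 0.566) and by -2.14 ± 0.20 in KO (2.54e-05). Vdr (chr15:97854425-97910630, minus strand, mm10) is counted here by its 3' end. The sources used here do not name the deleted segment, so the 933 reads left in the 4 KO libraries do not bear on whether a receptor protein is made. With the runs of library codes as a term, which compares KO and AF2 only through WT, Vdr was 1.199 with an edgeR adjusted p of 0.0523, and without KO 3 and KO 4 it was 1.77 with an adjusted p of 0.147.

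None of the receptor's partners or coregulators passed the test. Of 13 tested genes of this list, Vdr was the only one called and the only one with an unadjusted p under 0.05. Rxra, the main retinoid X receptor of the gut, differed by -0.07 ± 0.18 on the log2 scale. The coactivators that dock on activation function 2, Ncoa1, Ncoa2, Ncoa3 and Med1, differed by 0.04, 0.07, 0.03 and 0.09, and the corepressor Ncor1 by -0.13. Rxrg had 0 counts in all KO and AF2 libraries. Of 214 genes within 5 Mb of Vdr on chromosome 15, 98 were tested besides Vdr, with a median log2 fold change of 0.05 and 0 called. At an unadjusted p under 0.05, 5 were higher and 5 lower, beside 5.01% and 4.97% of all genes. Without KO 3 and KO 4 these counts were 7 and 0, in a fit whose shares over all genes are not given here.

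Slpi encodes an inhibitor of neutrophil elastase and related proteases that is secreted onto mucosal surfaces. Its level was 15.4, 18.2, 15.8 and 16.4 CPM in KO 1 to KO 4 against 29.7, 43.6, 39.4 and 30.7 in AF2 1 to AF2 4. The lowest AF2 library lay above the highest KO library, and the 6 WT libraries, at 17.7 to 30.2 CPM, overlapped both groups. The AF2 mean was 35.8 ± 6.76 CPM (SD, n = 4) and the KO mean 16.5 ± 1.27 CPM (SD, n = 4). Slpi rose by 1.13 ± 0.20 (SE) on the log2 scale, with a 95% interval of 0.72 to 1.53 and an edgeR adjusted p of 0.0326, on 342 reads in AF2 and 139 in KO. Against WT, at 24.0 ± 4.69 CPM (SD, n = 6), neither group passed: AF2 differed by 0.57 (edgeR adjusted p 0.178) and KO by -0.55 (0.246). In RNA of whole tissue, more cells of a type and more RNA per cell cannot be told apart. The call was lost when KO 1, KO 2, KO 3, KO 4, AF2 2 or AF2 3 was left out. Over all single libraries left out the log2 fold change was 1.03 to 1.21 and the edgeR adjusted p 0.0219 to 0.178. It was also lost with the runs of library codes as a term (0.79, edgeR adjusted p 0.443), without KO 3 and KO 4 together (1.098, 0.696), without robust estimation (edgeR adjusted p 0.0555) and with limma-voom (adjusted p 0.0661), and DESeq2 gave no adjusted p.

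The other genes of secreted defence and protease inhibition did not pass. Of 13 tested, 9 had a higher mean in AF2 and the median log2 fold change was 0.21, beside 0.00 over all genes, and -0.048 with the runs of library codes as a term. Single members ran from -3.47 to 1.13, and 0 were lower at an unadjusted p under 0.05. Besides Slpi, the cysteine protease inhibitor Cst3 had an unadjusted p under 0.05 (0.33). The lectins Reg3a, Reg3b and Reg3g, which act on gut bacteria, measured 0.77, 0.72 and 0.91 with unadjusted p of 0.27 or more, and Duox2, the oxidase of the epithelial surface, -1.33. Elane, the neutrophil elastase that Slpi inhibits, had 0 counts in all AF2 and KO libraries, and 0 of 6 neutrophil markers had enough counts to be tested.

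**Figure D1:**
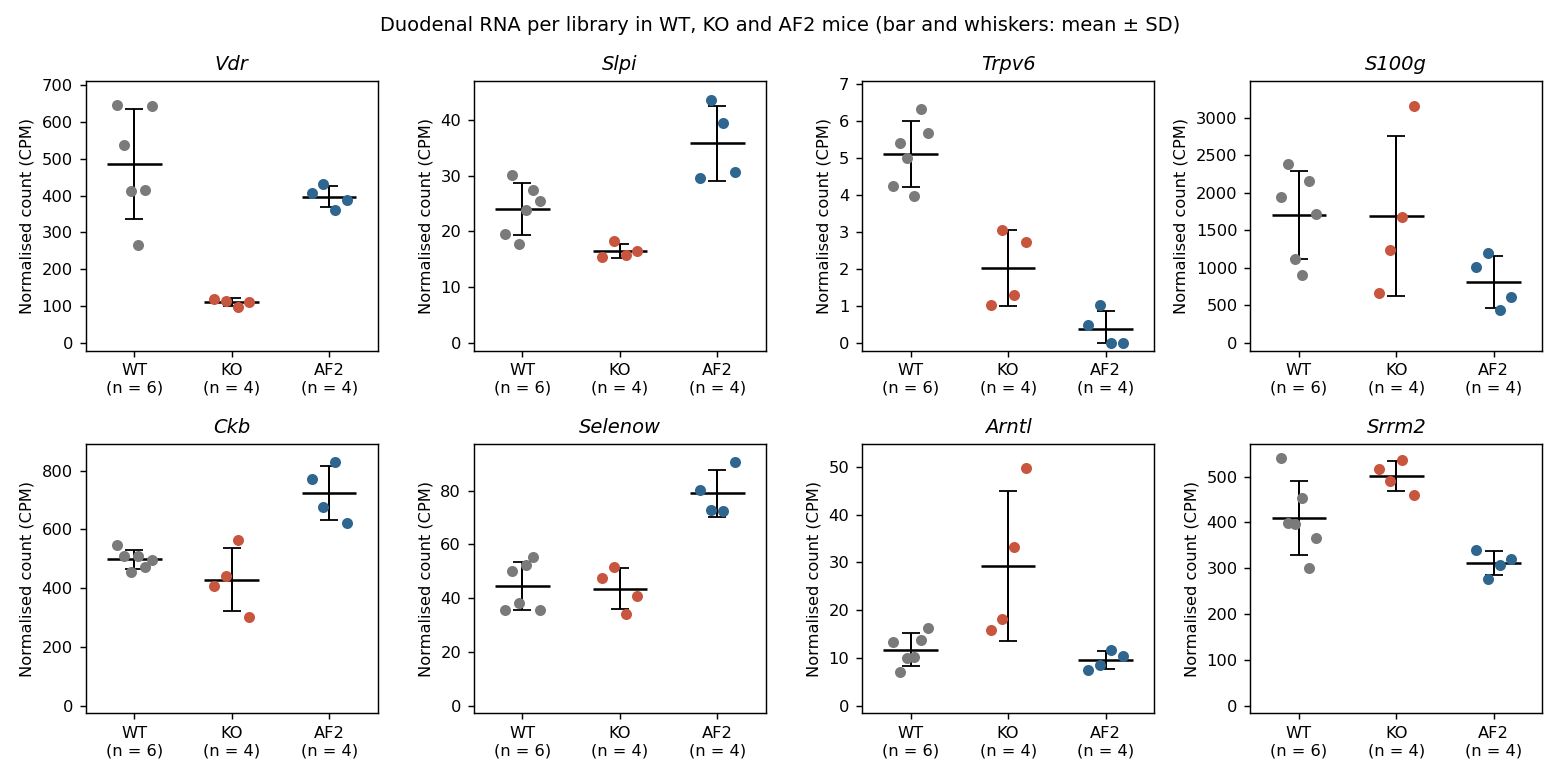
Normalised counts (CPM, vertical axes) of 8 genes in the 6 WT, 4 KO and 4 AF2 duodenal libraries (horizontal axes); points are libraries, bars means and whiskers SD, cut at 0. The AF2 libraries lie above every KO library for Vdr, Slpi, Ckb and Selenow and below every KO library for Trpv6, Arntl and Srrm2, while S100g overlaps.

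Calcium uptake is the process the receptor is best known for here, and none of its genes passed the test between AF2 and KO. Trpv6, the apical calcium channel of the enterocyte, measured 1.02, 3.04, 1.28 and 2.74 CPM in KO 1 to KO 4 against 0.494, 1.01, 0 and 0 in AF2 1 to AF2 4. All AF2 libraries lay below all KO libraries, and all KO libraries below the WT range of 3.96 to 6.32 CPM, but the highest AF2 library (1.01 CPM) and the lowest KO library (1.02 CPM) were nearly equal. Only 4 reads in AF2 and 17 in KO lie behind these values. The log2 fold change was -2.23 ± 0.71 (SE), with a 95% interval of -3.68 to -0.78 and an edgeR adjusted p of 0.235. Against WT, Trpv6 was called in AF2 (-3.56, edgeR adjusted p 0.0392) and not in KO (-1.33, 0.324).

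S100g, the calbindin that carries calcium across the cell, measured 670, 1236, 1671 and 3161 CPM in KO 1 to KO 4 against 1006, 1195, 437 and 617 in AF2 1 to AF2 4. The groups overlapped, the KO libraries differed among themselves more than the group means did, and KO 4 lay above every WT library. Against WT, S100g was called in neither group: KO differed by -0.02 (edgeR adjusted p 0.991) and AF2 by -1.07 (0.398). The log2 fold change of AF2 over KO was -1.05 ± 0.49 (SE), with a 95% interval of -2.12 to 0.02 and an edgeR adjusted p of 0.514. Leaving out single libraries moved it between -1.31 and -0.55, the latter without KO 4. It was -0.23 without KO 3 and KO 4 together and -1.98 with the runs of library codes as a term. In kidney, where the same contrast was made in other libraries, S100g was 129, 93.0, 79.1 and 112 CPM in KO against 50.4, 56.5, 52.0 and 76.5 in AF2, without overlap and with a log2 fold change of -0.80 (edgeR adjusted p 0.351).

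The exit of calcium was measured more closely. Atp2b1, the basolateral calcium pump, measured 2234, 1951, 2660 and 2742 CPM in KO against 3178, 2798, 2085 and 1989 in AF2, which overlap. Its log2 fold change was 0.07 ± 0.15 (SE), and the 95% interval of -0.25 to 0.38 lies within 2-fold. Atp2b4, another plasma membrane calcium pump, measured 28.1, 32.4, 22.6 and 34.2 CPM in KO against 54.4, 41.2, 37.2 and 39.6 in AF2, without overlap (0.55 ± 0.19, edgeR adjusted p 0.274). Of the claudins, which line the path between cells, the pore-forming Cldn15 measured 798, 728, 606 and 494 CPM in KO against 898, 766, 790 and 934 in AF2 (0.37 ± 0.13, edgeR adjusted p 0.296), with overlapping groups. Cldn2, another cation pore, was -0.19 ± 0.16 and Cldn12 -0.07 ± 0.17. The calmodulin genes Calm2 and Calm3 were -0.17 and 0.14, the sodium-calcium exchanger Slc8a1 0.29 and the voltage-gated channel Cacna1d 0.48. Of 12 calcium genes tested, 6 had a higher and 6 a lower mean in AF2, the median was 0.02 (-0.096 with the runs of library codes as a term), and the intervals of 9 lay within 2-fold. Trpv5, Calb1 and Casr had 0 counts in every KO and AF2 duodenal library.

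Known targets of the receptor in the intestine did not pass either, and 7 of 11 tested had a lower mean in AF2 (median -0.15). Cyp24a1, the enzyme that degrades the hormone and the most responsive target in many tissues, had 0 reads in all 8 libraries, which allows up to 0.355 CPM in KO and 0.322 CPM in AF2 (3 reads over each group, counting error only). Cyp3a11, a drug-metabolising oxidase, measured 59.4, 140, 125 and 183 CPM in KO against 113, 59.1, 49.3 and 63.4 in AF2, with overlap and a 95% interval of -2.16 to 0.48. The manganese exporter Slc30a10 was -0.20 ± 0.21, the sugar-phosphate transporter Slc37a2 0.29 ± 0.24, the drug pump Abcb1a 0.29 ± 0.30, the metal-binding Mt1 0.11 ± 0.42 and the transferrin receptor Tfrc -0.15 ± 0.23. The median of this list had the opposite sign without KO 3 and KO 4 (0.14).

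**Figure D2:**
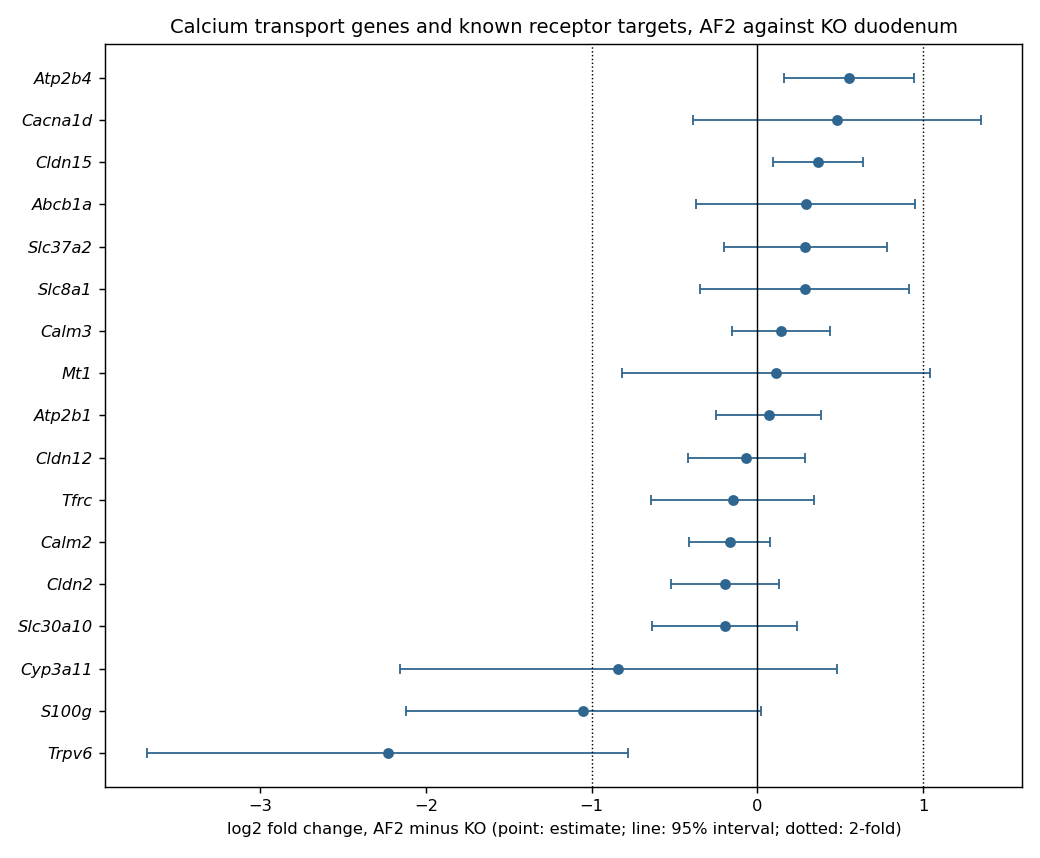
Log2 fold change of AF2 over KO (horizontal axis) for 17 calcium transport genes and known receptor targets (vertical axis); points are estimates, lines 95% intervals and dotted lines mark 2-fold. The interval of Trpv6, -3.68 to -0.78, lies wholly below 0, that of S100g reaches 0.02, and that of Atp2b1 stays between -0.25 and 0.38.

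Promoter windows are shown for the gene that was called besides Vdr and for the calcium genes with the largest estimates, so that the letters searched for can be seen. Each window runs from 250 bases before to 50 bases after a RefSeq transcription start on GRCm38.p6, written 5′ to 3′ on the gene's strand. Both strands were searched for AGGTCA, the core of many nuclear receptor sites, for a strict pair of AGGTCA with 3 bases between, the form that vitamin D receptor heterodimers prefer, and for CACGTG, the E-box of clock factors and other helix-loop-helix proteins. Matches are in capitals. AGGTCA occurs in 16.3% of all 32851 windows in the table, CACGTG in 7.15%, and the strict paired form in 2 windows (0.00609%). The windows are Slpi at chr2:164356458-164356757 (minus strand, CACGTG in capitals), Trpv6 at chr6:41636356-41636655 (minus strand, AGGTCA or its complement in capitals) and S100g at chrX:162964550-162964849 (minus strand, likewise).
Slpi: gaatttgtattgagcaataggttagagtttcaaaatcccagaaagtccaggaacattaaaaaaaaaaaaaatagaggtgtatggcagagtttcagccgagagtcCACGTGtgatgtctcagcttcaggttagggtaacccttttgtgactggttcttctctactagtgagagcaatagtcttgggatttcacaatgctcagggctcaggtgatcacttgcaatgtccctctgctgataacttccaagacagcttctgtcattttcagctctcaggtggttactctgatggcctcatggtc
Trpv6: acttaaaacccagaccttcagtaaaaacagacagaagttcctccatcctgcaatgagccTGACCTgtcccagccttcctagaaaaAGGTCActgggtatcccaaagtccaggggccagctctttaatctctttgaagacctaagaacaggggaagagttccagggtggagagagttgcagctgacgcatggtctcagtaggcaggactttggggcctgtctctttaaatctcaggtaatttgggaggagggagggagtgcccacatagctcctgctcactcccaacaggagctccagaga
S100g: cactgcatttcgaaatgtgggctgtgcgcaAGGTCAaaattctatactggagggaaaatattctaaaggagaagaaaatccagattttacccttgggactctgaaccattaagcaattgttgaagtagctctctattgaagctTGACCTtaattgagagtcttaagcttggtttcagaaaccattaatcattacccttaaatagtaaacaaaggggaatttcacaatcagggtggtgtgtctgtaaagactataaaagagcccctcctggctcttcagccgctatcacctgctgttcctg
The Slpi window holds 1 CACGTG, 146 bases before the start, and no AGGTCA on either strand. The windows of Trpv6 and S100g hold 2 matches of AGGTCA each. Of the 11 known targets with a window, 3 held AGGTCA in at least 1 of their windows (Trpv6, S100g and Cyp3a11) and 0 the paired form. This counts genes, whereas the shares above are per window. These are letters in a short window and not measured binding, and the genes shown were chosen with their values known.

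The genes with the smallest p after Vdr and Slpi did not pass. Among those higher in AF2, Ckb, the creatine kinase that buffers cellular energy, measured 408, 442, 563 and 303 CPM in KO against 772, 675, 828 and 622 in AF2. The groups did not overlap, and all AF2 libraries lay above all WT libraries (455 to 547 CPM). On the log2 scale the fold change was 0.76 ± 0.15 (SE), with an edgeR adjusted p of 0.0828. In kidney Ckb passed the test in the same direction (0.66, edgeR adjusted p 0.0461), with 42.4 to 60.8 CPM in KO against 78.5 to 89.7 in AF2. In kidney 45 of 13502 genes were called in this contrast (0.333%).

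Selenow, a small selenium-containing protein of muscle and other tissues, measured 47.6, 51.7, 34.1 and 40.6 CPM in KO against 80.1, 72.7, 72.3 and 90.6 in AF2. All AF2 libraries lay above every KO and every WT library. The log2 fold change over KO was 0.86 ± 0.17 (SE, edgeR adjusted p 0.0916), and against WT AF2 was called (0.83, edgeR adjusted p 0.0392). In kidney its log2 fold change of AF2 over KO was 0.02. The next genes on the higher side were Pcp4, a calmodulin-binding peptide (4.69 to 7.09 CPM in KO, 13.2 to 19.3 in AF2), the ganglioside synthase B4galnt1 (142 to 193 and 195 to 268 CPM), the peptidase Pgpep1 (37.4 to 43.6 and 55.9 to 63.5 CPM), complement C3 (35.3 to 43.1 and 48.0 to 67.4 CPM) and Rgs5, a brake on G-protein signalling that marks pericytes (142 to 190 and 241 to 287 CPM). Their edgeR adjusted p was 0.1 to 0.124.

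The genes of smallest p with a lower mean in AF2 did not pass either. Srrm2, a scaffold of splicing speckles, measured 516, 492, 536 and 460 CPM in KO against 341, 277, 307 and 320 in AF2. The groups did not overlap, and WT, at 301 to 540 CPM, spanned the gap between them. Fitted over all libraries, the log2 fold change was -0.69 ± 0.14 (SE), with an edgeR adjusted p of 0.095. Gtf3c1, a subunit of the RNA polymerase III factor TFIIIC, measured 38.9 to 54.2 CPM in KO against 24.3 to 30.2 in AF2, and Gspt1, which ends translation, 71.5 to 100.3 and 44.6 to 62.3. The chromatin reader Brd1 measured 95.2 to 108 CPM in KO against 58.4 to 72.2 in AF2, Supt16, a histone chaperone, 95.8 to 117 and 59.3 to 81.4, and Btaf1, which removes the TATA-binding protein from DNA, 52.7 to 76.0 and 35.1 to 43.1. Zfp664, Tiparp, Uba6 and Irf2bp2 had log2 fold changes of -0.82, -0.74, -0.72 and -0.54. Lama3, a laminin chain of the epithelial basement membrane, measured 3.58, 2.53, 2.56 and 10.5 CPM in KO against 0.494, 1.69, 0.866 and 0.991 in AF2, below the WT range of 3.63 to 7.75. Its log2 fold change was -2.18 ± 0.56 (SE), with an edgeR adjusted p of 0.147, and KO 4 stood apart from the other KO libraries.

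Transcript length moved with the comparison. Of the 13302 genes tested 13164 had a length in GENCODE, and among those whose longest transcript is at most 2074 bases, 6.59% were higher and 2.52% lower in AF2 at an unadjusted p under 0.05. Among genes of at least 4748 bases, 3.25% were higher and 8.63% lower. The median log2 fold change was 0.06 in the shortest and -0.05 in the longest quartile. Within single libraries, the median offset of the longest from the shortest quartile was 0.03 to 0.06 on the log2 scale in KO, -0.11 to 0.01 in AF2 and -0.05 to 0.05 in WT, so that KO and AF2 did not overlap. The WT libraries differed by run in the same direction, with 0.02 and 0.05 in WT 3 and WT 4, whose codes adjoin the KO run, and -0.05 and -0.02 in WT 5 and WT 6, whose codes adjoin the AF2 run. The median longest transcript was 4317 bases among the 661 lower genes, 2801.5 among the 667 higher genes and 3281.5 among all with a length. With the runs of library codes as a term the median was 0.04 in the shortest and -0.01 in the longest quartile. Without KO 3 and KO 4 these medians were 0.05 and -0.05. The part of transcript length in the results above was not tested.

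**Figure D3:**
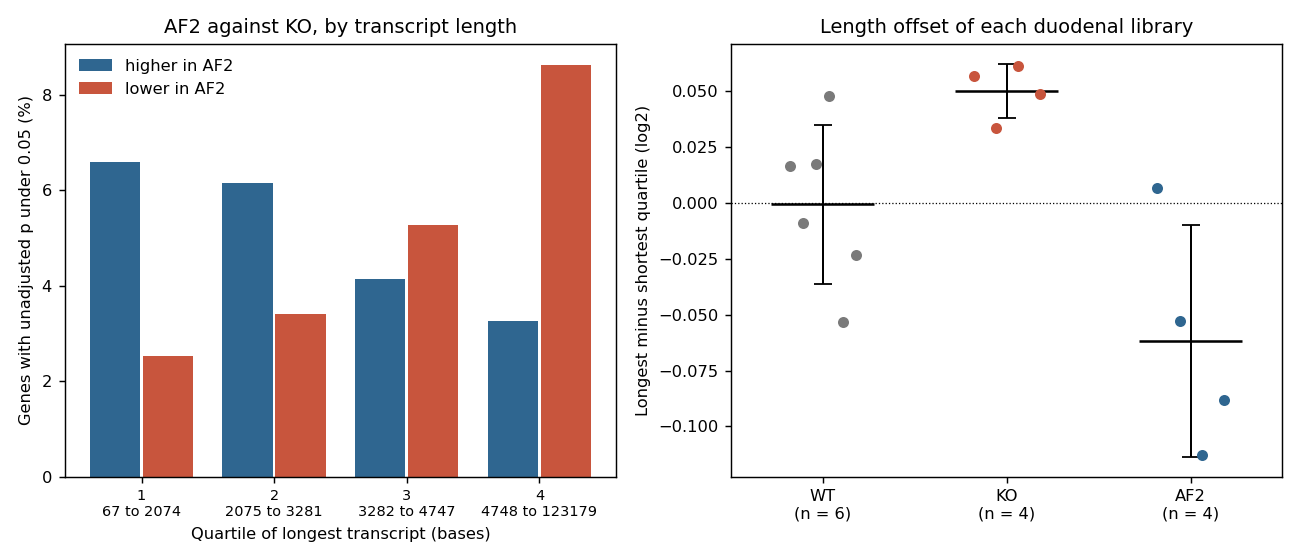
Left, percent of genes with an unadjusted p under 0.05 (vertical axis) higher (blue) or lower (red) in AF2 than in KO, by quartile of the longest annotated transcript (horizontal axis, bases); right, median log2 offset of the longest against the shortest quartile in each library, with group mean and SD. Lower genes make up 2.52% of the shortest and 8.63% of the longest quartile, and the KO libraries (0.03 to 0.06) lie above the AF2 libraries (-0.11 to 0.01).

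Genes of smooth muscle lay higher in AF2 as a group, although none was called. All 14 had a higher mean in AF2, the median log2 fold change was 0.59 beside 0.00 over all genes, 13 had an unadjusted p under 0.05 beside 5.01% of all genes, and 10 did not overlap beside 3.44% of all genes. Myl9, the regulatory light chain of smooth muscle myosin, measured 115, 119, 96.0 and 103 CPM in KO against 181, 173, 142 and 168 in AF2. All AF2 libraries lay above all KO libraries, and 3 of the 4 lay above the WT range of 91.9 to 145 CPM. Its fitted log2 difference was 0.62 ± 0.13 (SE, edgeR adjusted p 0.1). Desmin (Des, the intermediate filament of muscle) measured 39.4, 45.1, 30.7 and 34.2 CPM in KO against 53.9, 61.5, 53.2 and 76.8 in AF2, a log2 fold change of 0.72. The actin cross-linker Flna measured 107, 128, 121 and 87.6 CPM in KO against 196, 186, 143 and 175 in AF2 (0.66). The actin-binding Cald1 measured 147 to 195 CPM in KO against 225 to 263 in AF2 (0.55), and Myh11, the myosin heavy chain specific to smooth muscle, 143 to 165 and 164 to 215 (0.33). The summed level of the list was 1562 to 1871 CPM in KO, 2108 to 2583 in AF2 and 1518 to 2306 in WT, so AF2 lay above KO and overlapped WT. The median was 0.57 with the runs of library codes as a term, where 6 genes had an unadjusted p under 0.05. It was 0.40 with 8 such genes without KO 3 and KO 4. The shares of all genes at that p in these other fits are not given here.

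Markers of neighbouring wall tissue were examined beside these genes. Upk3b and Msln, markers of the mesothelium that covers the gut, measured 2.28 to 3.84 and 0 to 0.512 CPM in KO against 4.46 to 10.1 and 1.49 to 5.63 CPM in AF2, without overlap. WT measured 2.29 to 5.73 and 0.554 to 3.16 CPM, which overlap AF2 for both genes. The Msln values in KO rest on very few reads. Of 12 genes of extracellular matrix and fibroblasts 9 had a higher mean in AF2 (median 0.14), with summed levels of 999.8 to 1144 CPM in KO against 988.5 to 1427 in AF2, which overlap. Of 8 tested genes of enteric neurons and glia 5 had a higher mean (median 0.19, 39.7 to 61.8 and 48.3 to 70.8 CPM), and of 7 endothelial genes 5 (median 0.09). With the runs of library codes as a term the medians were 0.34 for matrix and fibroblasts, 0.75 for neurons and glia and -0.19 for endothelium. How much of the gut wall each sample held was not measured, and its part in the smooth muscle values was not tested.

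The Myl9 promoter window is shown because, of 11 smooth muscle genes with a window, only Myl9 held a CArG box in any window. The CArG box is the site of serum response factor, which drives many muscle genes. CArG boxes occur in 1.63% of all windows, a share of windows and not of genes. The window lies at chr2:156775214-156775513 (plus strand, GRCm38.p6, RefSeq), and the box in capitals starts 161 bases before the start site.
Myl9: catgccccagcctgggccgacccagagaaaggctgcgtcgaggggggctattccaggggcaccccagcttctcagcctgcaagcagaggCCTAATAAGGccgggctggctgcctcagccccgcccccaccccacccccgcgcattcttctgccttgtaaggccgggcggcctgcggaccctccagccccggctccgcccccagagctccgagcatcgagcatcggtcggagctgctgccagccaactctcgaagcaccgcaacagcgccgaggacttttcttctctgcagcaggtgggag
The match is a feature of the letters, and the other 10 genes, without a box in any window, include genes with similar fold changes.

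**Figure D4:**
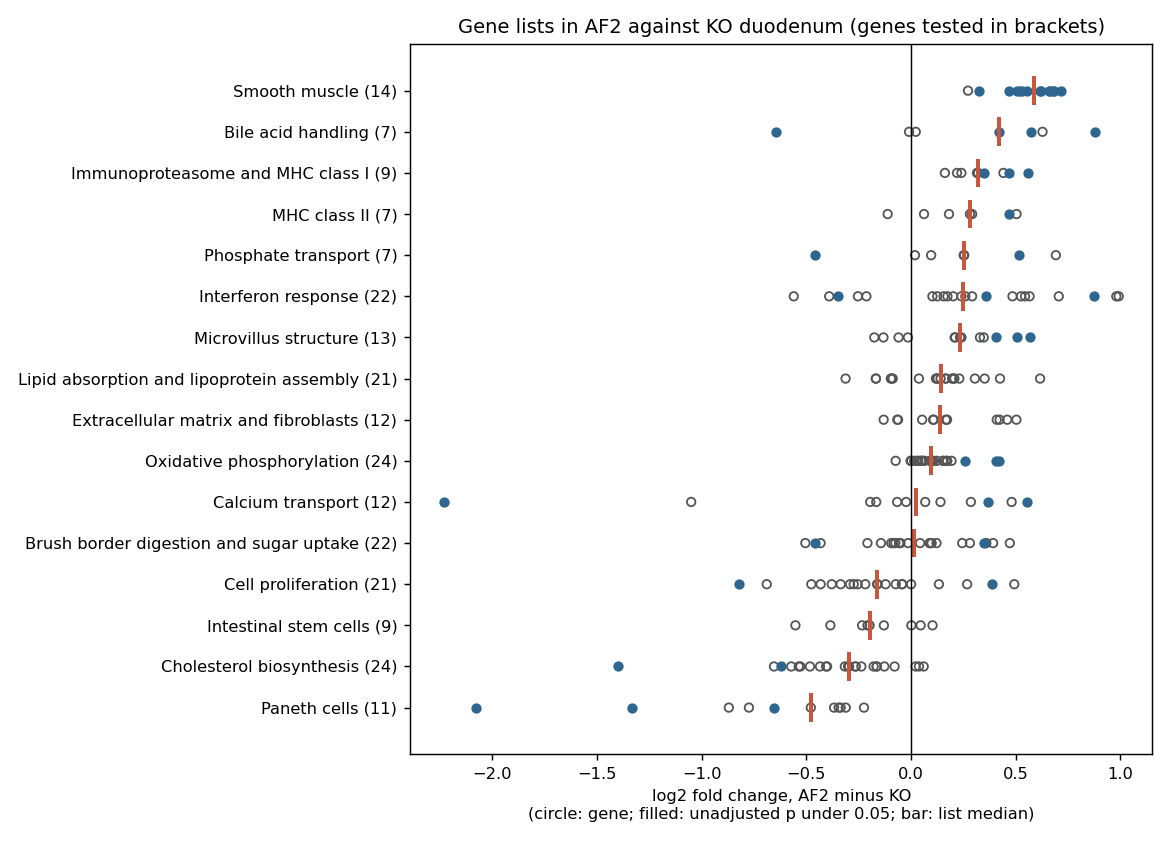
Log2 fold change of AF2 over KO (horizontal axis) for the tested genes of 16 lists (vertical axis, genes tested in brackets); circles are genes, filled where the unadjusted p is under 0.05, and bars are list medians. Smooth muscle (median 0.59) has all 14 genes above 0, and Paneth cells (median -0.48) all 11 below 0.

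Paneth cell genes had lower means in AF2, and the groups overlapped for every one. Paneth cells sit at the crypt base and secrete antimicrobial peptides. All 11 tested had a lower mean, the median was -0.48, and 3 had an unadjusted p under 0.05 beside 4.97% of all genes. The median was -0.099 with the runs of library codes as a term, where Mmp7 came to -0.038 and Defa21 to -0.32, and it was -0.61 without KO 3 and KO 4 and -0.21 without AF2 2. Defa22, an alpha-defensin, measured 10.7, 7.09, 11.9 and 1.83 CPM in KO against 1.48, 1.35, 2.16 and 2.48 in AF2, with KO 4 among the AF2 values. Its log2 fold change was -2.08 ± 0.58 (SE), with an edgeR adjusted p of 0.177. Defa21 measured 17.9, 9.12, 23.0 and 10.95 CPM in KO against 4.45, 4.06, 6.06 and 9.91 in AF2, and Mmp7, the protease that activates the defensins, 44.0, 23.3, 35.8 and 21.0 and 17.3, 13.9, 29.9 and 17.8. WT was 0.327 to 3.339 CPM for Defa22, which spans the AF2 libraries. For Defa21 it was 1.67 to 8.81 CPM, which spans the AF2 libraries except AF2 4. Lyz1, the most abundant lysozyme of these cells, differed by -0.22, and the summed level, 4075 to 8348 CPM in KO against 2605 to 7220 in AF2, overlapped. In WT the sum was 2305 to 4218 CPM. AF2 3 (7220) and AF2 4 (6463) lay above that range, and AF2 1 (3985), AF2 2 (2605) and KO 4 (4075) lay within it. Defensin genes are near-identical copies, and how shared reads were counted is not given in the sources used here. Genes of other epithelial types lay near 0: goblet cells had a median of 0.10, enteroendocrine cells -0.07 and tuft cells -0.03. Stem cell genes had a median of -0.20 and proliferation genes of -0.16, with 16 of 21 lower. Both turned sign with the runs of library codes as a term, to 0.42 and 0.35, as did enteroendocrine cells (0.30) and tuft cells (0.049), and the stem cell median was 0.060 without KO 1.

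Genes of the absorbing surface gave no call. The 22 genes for brush border digestion and uptake of sugar had a median of 0.01, with 11 higher and 11 lower, and 17 of their intervals lay within 2-fold. Sis, the sucrase-isomaltase, was 0.10, the lactase Lct -0.01, and the glucose transporter Slc5a1 0.39, with 1542 to 2427 CPM in KO against 2070 to 2939 in AF2. Genes of the microvillus skeleton had a median of 0.23 with 3 of 13 at an unadjusted p under 0.05, all higher in AF2, beside 5.01% of all genes. Myo1a, the motor that ties the actin core to the membrane, measured 1015, 921, 965 and 741 CPM in KO against 1535, 1303, 1265 and 1303 in AF2, without overlap (0.57 ± 0.14, edgeR adjusted p 0.124). The actin bundler Espn (0.50) and Actb (0.40) were the others. Fat absorption genes had a median of 0.14, with 15 of 21 higher and 0 at an unadjusted p under 0.05. Of the 21, 3 were higher without overlap, beside 3.44% of all genes. With the runs of library codes as a term the medians were -0.57 for the brush border, -0.29 for the microvillus and -0.25 for fat absorption, so the sign turned in all 3 lists.

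Phosphate handling, the other mineral absorbed here, gave no call. Of 7 tested genes 6 had a higher mean in AF2 (median 0.25, and 0.061 with the runs of library codes as a term). Slc20a1, a sodium-phosphate cotransporter, measured 138, 135, 63.2 and 45.6 CPM in KO against 206, 146, 132 and 133 in AF2, which overlap, with KO 3 and KO 4 lowest. The phosphate exporter Xpr1 was 0.25, the scaffold Slc9a3r1 0.25 and Enpp1, which makes pyrophosphate, 0.52, while the alkaline phosphatase Alpi was -0.46. Of 5 tested genes of vitamin D handling, 4 had a lower mean and none an unadjusted p under 0.05.

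Bile acid genes had a median of 0.42 over 7 tested, with 3 higher and 1 lower at an unadjusted p under 0.05, beside 5.01% and 4.97% of all genes. With the runs of library codes as a term the median was 0.14, with 1 higher and 2 lower at that p, and without KO 3 and KO 4 it was 0.30. The shares of all genes at that p in these other fits are not given for this list. Abcc2, an apical exporter of conjugates, measured 258, 229, 223 and 181 CPM in KO against 425, 325, 298 and 280 in AF2, without overlap (0.57 ± 0.17, edgeR adjusted p 0.204). Slc51a, a subunit of the basolateral bile acid exporter, measured 97.2, 124, 85.3 and 99.0 CPM in KO against 134, 140, 129 and 140 in AF2, also without overlap (0.42 ± 0.13), while its partner Slc51b was 0.02. Nr0b2, the corepressor SHP, was 0.88 ± 0.30 with overlap, and Nr1h4, the bile acid receptor FXR, was -0.65, with 19.96 to 26.9 CPM in KO against 8.40 to 18.9 in AF2. The AF2 and KO libraries did not overlap for Nr1h4. Of 19 xenobiotic genes 8 had a higher mean and 11 a lower one (median -0.09). Gsta1, a glutathione transferase, had the smallest p of them, with 129, 164, 206 and 145 CPM in KO against 105, 113, 119 and 66.9 in AF2 (-0.67 ± 0.17, edgeR adjusted p 0.158).

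Cholesterol synthesis genes had lower means in AF2 in 21 of 24, with a median of -0.30 beside 0.00 over all genes. Of these, 2 had an unadjusted p under 0.05 beside 4.97% of all genes. Tm7sf2, a sterol reductase, measured 6.14, 6.59, 7.25 and 5.93 CPM in KO against 3.95, 1.35, 2.16 and 2.48 in AF2, without overlap (-1.40 ± 0.42, edgeR adjusted p 0.214). Pmvk, the phosphomevalonate kinase, measured 24.6, 20.8, 26.9 and 20.5 CPM in KO against 13.8, 13.2, 15.1 and 18.3 in AF2, without overlap (-0.62 ± 0.20). The summed level was 1499 to 2265 CPM in KO against 1303 to 1650 in AF2, which overlap. The median was -0.65 with the runs of library codes as a term and -0.46 without KO 3 and KO 4.

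Immune genes had higher means in AF2 in several lists, with a sign that depended on the fit. All 9 tested genes of the immunoproteasome and MHC class I had a higher mean (median 0.32), 3 of them at an unadjusted p under 0.05 beside 5.01% of all genes. Psmb9, a catalytic subunit of the immunoproteasome, measured 19.96, 28.9, 19.2 and 29.2 CPM in KO against 32.6, 34.8, 34.2 and 41.6 in AF2, without overlap (0.56 ± 0.18, edgeR adjusted p 0.235). The class I heavy chain H2-K1 was 0.35 and the peptide loader Tapbp 0.47. Of 22 interferon genes 17 had a higher mean (median 0.25), and of 7 MHC class II genes 6 (median 0.28). The macrophage list had a median of 0.29, with Lyz2 at 0.59, while lymphocyte and plasma cell lists had medians of -0.35 and -0.29 (-1.93 and -1.33 with the runs of library codes as a term). With the runs of library codes as a term, the medians were -0.19 for class I, -0.24 for interferon genes, -0.56 for class II and -0.13 for macrophages, all of the opposite sign.

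Energy and translation genes gave no call. Of 24 genes of oxidative phosphorylation 22 had a higher mean in AF2, the median was 0.09, and all 24 intervals lay within 2-fold. Of the 24, 3 were higher at an unadjusted p under 0.05 and 5 were higher without overlap, beside 5.01% and 3.44% of all genes. Uqcrc1, a core subunit of complex III, had the smallest p, with 369, 398, 414 and 365 CPM in KO against 568, 454, 454 and 592 in AF2 (0.42 ± 0.13, edgeR adjusted p 0.225). Of 25 genes of cytosolic ribosomal proteins 17 had a higher mean (median 0.09). With the runs of library codes as a term the median was -0.12 for oxidative phosphorylation and 0.33 for ribosomal proteins.

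Several clock genes differed between AF2 and KO at an unadjusted p under 0.05, none was called, and 2 KO libraries stood apart in them. Arntl, which encodes the activator BMAL1, measured 15.9, 18.2, 33.3 and 49.7 CPM in KO 1 to KO 4 against 7.42, 8.45, 11.7 and 10.4 in AF2 1 to AF2 4. The groups did not overlap, WT lay at 6.94 to 16.4 CPM, and KO 3 and KO 4 were the highest of all 14 libraries. On the log2 scale AF2 differed from KO by -1.63 ± 0.32 (SE, edgeR adjusted p 0.095). Nr1d1, the repressor REV-ERB alpha, measured 52.7, 35.5, 6.401 and 7.30 CPM in KO against 68.7, 74.3, 59.7 and 72.8 in AF2. KO 3 and KO 4 were the 2 lowest libraries, and the AF2 libraries lay close together. Dbp, an output activator, measured 27.6, 18.8, 11.9 and 4.56 CPM in KO against 72.7, 41.9, 57.1 and 48.5 in AF2, without overlap. The log2 fold changes were 1.45 ± 0.54 for Nr1d1 and 1.82 ± 0.48 for Dbp, with edgeR adjusted p of 0.384 and 0.214. Of 16 clock genes, 8 had a higher and 8 a lower mean, and 5 and 2 had an unadjusted p under 0.05, beside 5.01% and 4.97% of all genes. Without KO 3 and KO 4 these counts were 2 and 1, in a fit with fewer libraries whose shares over all genes are not given here.

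The KO libraries numbered 3 and 4 stood apart in kidney as well for Nr1d1 and Arntl, but not for Dbp. Kidney Nr1d1 measured 45.3, 29.2, 4.13 and 1.13 CPM in KO 1 to KO 4 against 29.9 to 45.3 in AF2, and kidney Arntl 3.09, 3.70, 6.20 and 12.9 in KO and 3.74 to 5.04 in AF2. Kidney Dbp measured 95.8, 28.4, 23.3 and 16.3 CPM in KO 1 to KO 4 against 52.8 to 136 in AF2, with KO 2 near KO 3 and KO 4. Without KO 3 and KO 4 the duodenal log2 fold changes were -0.84 for Arntl, 0.65 for Nr1d1 and 1.25 for Dbp. No source used here gives the time of tissue collection, and its part in these values was not tested.

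**Figure D5:**
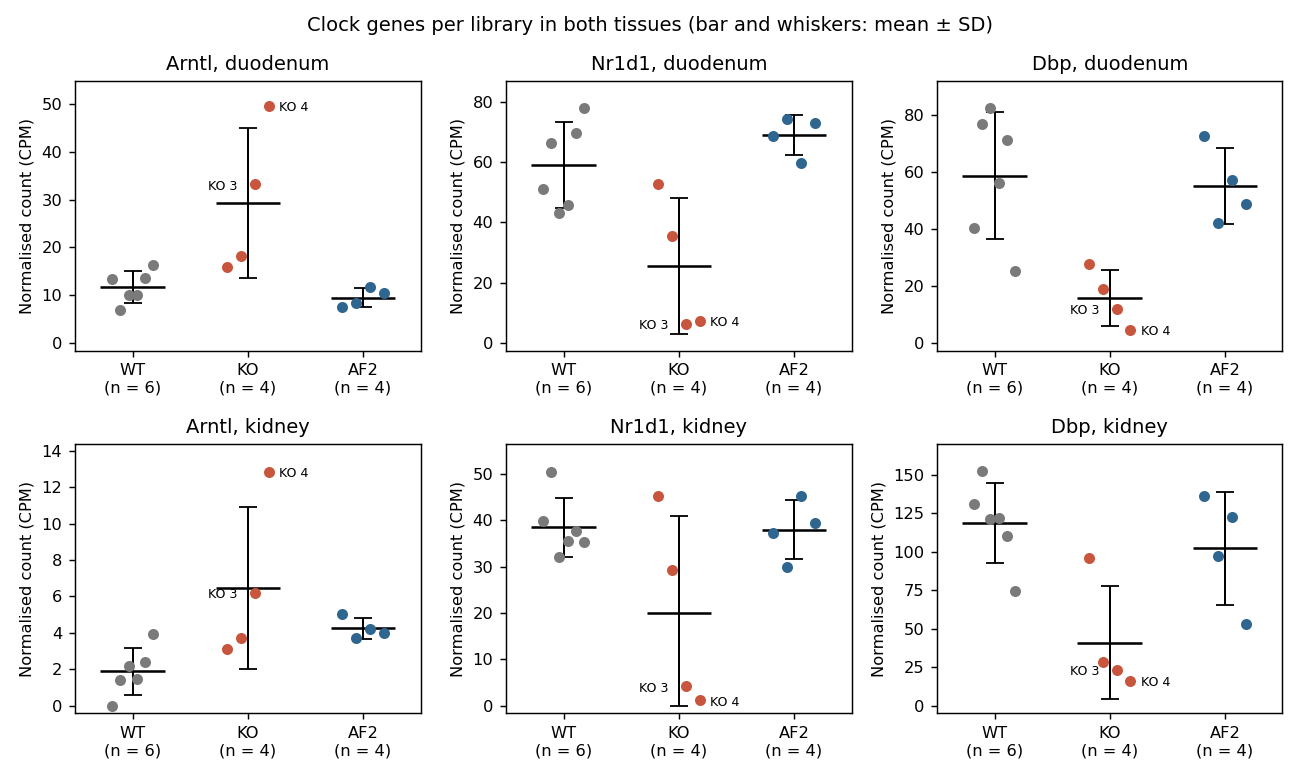
Normalised counts (CPM, vertical axes) of Arntl, Nr1d1 and Dbp in duodenum (top) and kidney (bottom) of WT, KO and AF2 libraries (horizontal axes); points are libraries, bars means and whiskers SD, cut at 0. KO 3 and KO 4 have the lowest Nr1d1 and the highest Arntl in both tissues.

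The Arntl promoter is shown because REV-ERB alpha, the product of Nr1d1, is known to repress it through AGGTCA sites, and the 2 genes lay on opposite sides in KO 3 and KO 4. Of 2 start sites in the table the one whose window holds a match is printed, chr7:113207261-113207560 (plus strand, GRCm38.p6, RefSeq), with AGGTCA in capitals 31 bases after the start.
Arntl: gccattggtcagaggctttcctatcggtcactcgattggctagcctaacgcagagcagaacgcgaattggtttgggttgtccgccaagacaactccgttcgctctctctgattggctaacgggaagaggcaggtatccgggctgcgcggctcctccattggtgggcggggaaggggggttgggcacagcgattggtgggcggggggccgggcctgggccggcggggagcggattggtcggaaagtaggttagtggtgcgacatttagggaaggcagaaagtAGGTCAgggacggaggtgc
Of 14 clock genes with a window, 5 held CACGTG in at least 1 of their windows (Per1, Cry1, Tef, Ciart and Bhlhe41). CACGTG occurs in 7.15% of all windows, but that share is per window. A gene can have several windows, so the 2 values cannot be compared directly.

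The difference between AF2 and KO was also set against the same difference in kidney, with an interaction term over all 28 libraries fitted together. Of 14944 genes tested 4 were called (0.0268%) and 1194 had an unadjusted p under 0.05 (7.99%), and Vdr was not among them (2.26 in kidney, 1.84 in duodenum). Gchfr, a regulator of GTP cyclohydrolase, measured 3.58, 3.04, 3.84 and 2.28 CPM in duodenal KO and 8.90, 10.5, 8.66 and 7.43 in AF2, against 18.2 to 24.2 and 9.81 to 19.7 CPM in kidney. Its duodenal effect exceeded the kidney effect by 1.99 ± 0.39 on the log2 scale (edgeR adjusted p 0.0417). Cyp7b1, an oxysterol hydroxylase, measured 2.05, 2.53, 5.55 and 3.19 CPM in duodenal KO and 0.494, 1.01, 0.866 and 1.49 in AF2, while kidney had 1.54 to 5.90 in KO and 8.39 to 55.6 in AF2, a difference of -5.12 ± 0.89 (edgeR adjusted p 0.0176). Wscd1 had 1, 2, 3 and 4 duodenal reads in KO 1 to KO 4 and 0 in every AF2 library, too few to describe its duodenal fold. The call count of 4 was 0 without KO 3, without AF2 2 or without AF2 3, and 40 with DESeq2.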

How the data were processed

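The authors deposited raw counts per gene symbol and library, 1 table per tissue, per the file headers. Genotype came from sample titles, and library codes matched titles to columns. A QuantSeq kit turned total RNA into libraries, per the labels' protocols. The submitters' processing notes name mm10 and limma 3.34.9, whose role is not given in the sources used here, nor are the aligner, the counting tool, its use of strand or how reads shared by overlapping or near-identical genes were treated. Without strand, a gene and an antisense partner cannot be told apart. Every deposited count was even (0 odd), so tests used counts as deposited and reads are counts divided by 2. Of 31179 symbols 30294 matched GENCODE vM21, which supplied coordinates and lengths.

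All 14 duodenal libraries entered 1 fit in edgeR 4.0.16 (R 4.3.3) with filterByExpr by group, TMM scaling, genotype as the only term and robust two-sided quasi-likelihood tests with Benjamini-Hochberg adjustment. A standard error is the size of the log2 fold change divided by the root of its F statistic. Length and library offsets used log2(CPM + 0.5). DESeq2 1.42.0, limma-voom 3.58.1 and the other alternatives are in the closing section. The steps were tested on simulated data. No pair of libraries within KO or within AF2 agreed within sampling noise (smallest chi-square per degree of freedom 5.00), and nothing in the sources says they came from separate animals, so p-values measure only the spread between these samples.

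Genes were named by rule: Vdr, called genes, the calcium and target lists, the 12 higher and 12 lower genes of smallest p whose average log2 CPM is 1 or more and groups that do not overlap, up to 4 members of each list with 3 members at an unadjusted p under 0.05 or a median at least 0.25 from 0, and called genes of the tissue difference. Other list members, mesothelial, liver and pancreatic genes and the promoters were picked after their values were seen. The members, lists and rule were chosen with earlier results of these data known. Promoter windows are from RefSeq (GRCm38.p6). Some genes that the rule would name are not reported here.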

Additional observations from a re-analysis of the deposited data

Results flagged for a closer look

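Of 302 groups of 4 libraries examined (KO and AF2, for each named gene and list sum), 18 held a library far from the other 3 relative to the range of the group, and chance alone sets 1 in 20 apart. In KO 4, Cldn2 was 216 CPM (others 163.7 to 165), Lama3 10.5 (2.53 to 3.58), Isg15 37.9 (19.4 to 21.3), Tef 47.0 (78.5 to 83.1) and Ndufa2 371 (439 to 451). In KO 3, Slc37a2 was 52.9 CPM (35.3 to 36.0). In KO 2, pancreatic genes stood out, with Try4 at 1040 CPM (1039.87 before rounding, others 8.19 to 172), Cpb1 at 1004 (12.3 to 151) and the pancreatic sum at 11920 (109 to 2118), as did the sums of mast cell genes at 48.6 (19.6 to 21.3) and tuft cell genes at 92.2 (77.7 to 79.0).

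In AF2 1, Myo1a was 1535 CPM (others 1265 to 1303). In AF2 2, Tapbp was 329 CPM (226 to 243) and Ndufb3 264 (250.2 to 252). In AF2 3, the smooth muscle sum was 2108 CPM, below the 2566 to 2583 of the others and still above every KO library. In AF2 4, Slc30a10 was 160 CPM (160.476 before rounding, others 272 to 283), Rpl18 73.8 (39.5 to 43.3) and the stress response sum 1749 (2290 to 2353).

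The difference of AF2 from KO was not the same in duodenum and kidney for 4 genes, Gchfr, Cyp7b1 and Wscd1 among them, by the interaction test in edgeR. As duodenum minus kidney on the log2 scale it was 1.99 for Gchfr, with higher values in AF2 in duodenum and lower values in kidney, and -5.12 for Cyp7b1, with the arrangement turned. For Wscd1 it was -6.50 (edgeR adjusted p 0.0176), a fitted value that rests on 0 duodenal reads in AF2 and is no measure of size, beside 5.15 to 7.38 CPM in KO and 6.29 to 17.5 CPM in AF2 kidney.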

How the results depend on the processing

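The count of genes called between AF2 and KO, 2 in the fit reported, was 2 with RLE size factors, limma-voom or halved counts, 93 with DESeq2, 106 with no filter on low counts, 50 with only KO and AF2 samples in the fit, 5 with the runs of library codes as a block (1 higher, 4 lower, and neither Vdr nor Slpi) and 1 without robust estimation. It ranged from 1 to 4 with single libraries left out, being 4 without WT 4 and 1 without KO 2, KO 4, AF2 2 or AF2 3. Without KO 3 and KO 4 together, chosen after seeing the data, edgeR called 0, with 818 genes at an unadjusted p under 0.05. Same-numbered KO and AF2 libraries were little alike (correlations of their deviations -0.02 to 0.11). The best AF2 match of KO 1, KO 2 and KO 3 still had the same number, and that of KO 4 did not. Whether the numbers pair the samples is not given in the sources used here. With the replicate number as a block 14 genes were called, Vdr and Slpi among them. For the tissue difference, 4 calls became 40 with DESeq2, 6 with no filter, 4 with RLE factors, 4 with the replicate block and 0 to 6 with single libraries left out. Of 106 named genes not called in the fit reported, 33 were called under at least 1 alternative. Log2 fold changes turned sign under the block of library codes for Atp2b1 (-0.016), Calm3 (-0.18), Cldn2 (0.11), Mt1 (-0.11), Tfrc (0.038), Slc9a3r1 (-0.075), Ezr (-0.29), Rtp4 (-0.63), Isg15 (-0.26), H2-K1 (-0.15), Tapbp (-0.40), Tap1 (-0.23), H2-Eb1 (-0.068), H2-Ab1 (-0.47), H2-DMa (-0.99), Cd74 (-0.56), C1qc (-0.18) and C1qa (-0.40), and without KO 3 and KO 4 for Slc30a10 (0.20) and Tfrc (0.14). With single libraries left out the ranges that cross 0 were -0.060 to 0.17 for Atp2b1, -0.15 to 0.020 for Cldn12, -0.32 to 0.011 for Slc30a10, -0.13 to 0.47 for Mt1, -0.34 to 0.053 for Tfrc, -0.048 to 0.77 for H2-DMa and -0.51 to 0.010 for Igha. None of these genes had passed, and the cause was not tested. Depth limits genes such as Trpv6, with 4 reads in AF2, and a count of 0 allows up to 0.355 CPM in KO and 0.322 CPM in AF2 (3 reads, counting error only).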
